A study of Mus musculus with 6 samples.

Results

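The interferon-inducible GTPases examined here are 10 mouse genes of 2 families, chosen by name in the deposited gene table. The guanylate-binding proteins (GBPs) were Gbp2, Gbp3, Gbp5, Gbp6 and Gbp7, and the immunity-related GTPases (IRGs) were Igtp, Irgm1, Irgm2, Iigp1 and Ifi47. All 10 were found among the 54532 genes of the table, and all 10 were among the 12907 genes that passed the low-count filter and were tested. RNA had been sequenced in 2 groups of 3 libraries from MB49, a mouse line of bladder cancer cells that derives from a male animal. The labels also name the source as MB49 tumor. The CRISPR Y-KO group is named as a knockout of the Y chromosome in the Y-positive form of the line, and the CRISPR Y-Scr group is its control, made with a guide RNA that targets nothing. The sources used here do not say how Y-KO was made: the growth text, the same for all 6 samples, describes only the control. Per the labels' protocols, the cells of both groups had been transduced, sorted for the tRFP reporter and expanded from single cells. Whether replicates were separate clones or cultures is not stated, so the p-values measure only the spread between these libraries, which may be technical, and clone and group cannot be told apart. The comparison asks how expression of these genes differs between Y-KO cells and their Y-Scr controls.

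GBPs and IRGs are GTPases that cells make in response to interferons and that act inside the cell against intracellular bacteria and parasites. GBPs gather on pathogen-containing vacuoles and on bacterial surfaces and help to set off inflammasomes, and some of them are anchored to membranes by a prenyl group. In mouse cells the IRGs fall into 2 kinds: effectors such as Iigp1 and Ifi47, which coat and break the vacuole, and regulators (Irgm1, Irgm2 and Igtp), which sit on the cell's own membranes and keep the effectors inactive there. Transcription factors switched on by interferons act on these genes, among them IRF1 for interferon-gamma and STAT2 with IRF9 for type I interferon. Interferon-gamma acts through the GAS element, for which the letters TTCNNNGAA were searched here, and complexes with IRF proteins bind an ISRE, searched here as its core, GAAA and GAAA with any 2 bases between them.

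Upstream sequence was taken from RefSeq (GRCm38.p6) for the members whose window, from 250 bases before to 50 bases after the transcription start, held one of the motifs. It is shown because most members with a window held a motif in it, which the choice of members did not use. The printed windows were picked for holding a motif, so that each holds one is no result. The strand of the gene is printed 5′ to 3′, up to 170 bases before the start and with at most 30 bases that GENCODE annotates as exon, and capitals mark the motif matches. An ISRE core on the opposite strand reads TTTC and TTTC with 2 bases between them here.
Gbp2, chr3:142620493-142620631, forward strand: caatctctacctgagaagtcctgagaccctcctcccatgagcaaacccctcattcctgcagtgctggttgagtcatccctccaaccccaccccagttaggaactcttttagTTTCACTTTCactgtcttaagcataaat
Gbp3, chr3:142559874-142560043, forward strand: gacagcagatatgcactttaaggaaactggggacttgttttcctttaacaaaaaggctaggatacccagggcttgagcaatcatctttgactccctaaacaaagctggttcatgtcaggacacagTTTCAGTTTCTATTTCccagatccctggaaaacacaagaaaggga
Gbp5, chr3:142496764-142496929, forward strand: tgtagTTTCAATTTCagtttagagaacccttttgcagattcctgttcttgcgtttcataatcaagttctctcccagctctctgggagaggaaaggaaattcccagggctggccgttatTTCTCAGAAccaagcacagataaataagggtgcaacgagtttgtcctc
Gbp7, chr3:142530166-142530335, forward strand: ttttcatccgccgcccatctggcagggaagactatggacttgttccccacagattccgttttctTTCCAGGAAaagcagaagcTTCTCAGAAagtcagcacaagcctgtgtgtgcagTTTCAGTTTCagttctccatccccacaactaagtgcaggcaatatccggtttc
Igtp, chr11:58199386-58199555, forward strand: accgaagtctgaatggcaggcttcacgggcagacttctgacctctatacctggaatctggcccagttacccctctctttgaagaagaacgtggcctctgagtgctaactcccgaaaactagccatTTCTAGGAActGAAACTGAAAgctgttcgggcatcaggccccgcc
Irgm2, chr11:58214807-58214976, forward strand: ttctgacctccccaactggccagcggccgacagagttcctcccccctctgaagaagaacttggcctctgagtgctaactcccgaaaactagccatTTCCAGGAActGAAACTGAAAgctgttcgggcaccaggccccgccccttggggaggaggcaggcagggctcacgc
Irgm1, chr11:48871428-48871457, reverse strand: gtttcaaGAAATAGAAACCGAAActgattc

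Of the 10 members, 8 had a window in the RefSeq table, 9 windows in all. Counts of members below are of genes, while shares are of windows. The ISRE core was found on either strand in 7 of these 8 genes, and it was present in 3.44% of all 32851 promoter windows. TTCNNNGAA, which reads the same on both strands, was found in 4 of the 8 (Gbp5, Gbp7, Igtp and Irgm2) and in 8.3% of all windows. Ifi47 held neither string in its window, nor did a further window of Gbp3. In Gbp3 (bases -45 to -30 from the start) and in Irgm1 (bases -30 to -15) a pair of ISRE core matches overlapped. In Igtp and Irgm2 the TTCNNNGAA match stood 2 bases before the ISRE core GAAACTGAAA, and the same spacing of 2 bases was present in the paralogs Tgtp1, Tgtp2 and Gm12185. Both strings occurred together, at any distance, in 0.454% of all windows and in 4 of the 8 members (Gbp5, Gbp7, Igtp and Irgm2). The share of all windows with the spacing of 2 bases was not counted. The Irgm2 stretch, which ends at 58214976, lies inside the gene as GENCODE annotates it (58199618 to 58222782). The end of its window matched no GENCODE transcript of Irgm2 on either strand, so its place as a promoter is uncertain. All these matches are letters in a window and were not tested as binding sites.

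Members lie in clusters, and coordinates are given as GRCm38. On chromosome 3, Gbp5 (142493978 to 142522344), Gbp7 (142530342 to 142550149), Gbp3 (142560026 to 142573209) and Gbp2 (142620602 to 142638008) follow each other on the forward strand. Gbp6 lies on chromosome 5 (105270702 to 105293698). On chromosome 11, Irgm1 (48861968 to 48871683) and Ifi47 (49076587 to 49096974) lie in one cluster, and Igtp (58199556 to 58207591) and Irgm2 (58199618 to 58222782) overlap in another. Iigp1 lies on chromosome 18 (60376029 to 60392627). All are annotated as protein-coding. Igtp and Irgm2 share 162 exonic bases on the same strand, 8.0% of the exonic bases of Igtp and 4.4% of those of Irgm2. For Gbp6, 29.0% of exonic bases are also annotated to Gm43302, a gene listed with 0 counts in all 6 libraries. For Gbp7 the share is 11.3%, with Gm43802, and for Ifi47 it is 8.8%, with Olfr56 and Gm12188. These genes were also at 0 counts in all libraries. For Gbp2 the share is 1.0%, with Mir6381. Reads in such stretches, and reads shared with close paralogs, could have been split or dropped by the counting, so levels of these genes are uncertain to that extent.

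All 10 members were lower in Y-KO cells than in Y-Scr cells. Each passed edgeR's quasi-likelihood test at an adjusted p under 0.05, and in every member each Y-KO library lay below each Y-Scr library. Among all tested genes, 23.0% were called lower, 20.7% were called higher, 27.5% had every Y-KO library below every Y-Scr library and 25.4% had every Y-KO library above. The median log2 fold change of the members was -4.58, against -0.01 over all tested genes. Of the 10 members, 7 were at least 16-fold lower, a change that 51 tested genes (0.395%) reached. These 7 and Gbp5 had mean Y-KO levels of 0 to 0.650 CPM and passed the low-count filter through their Y-Scr libraries. A large fall was thus nearly the only outcome open to them. Members were also chosen with earlier results of these data known. The calls, the lack of overlap, the median and the shares above are thus no test of them. Counts of all members together came to 267, 263 and 265 in the Y-KO libraries, against 1718, 1660 and 2356 in the Y-Scr libraries. In sums of RPKM (counts scaled to gene length and to library size), the members reached 4.08 ± 0.226 in Y-KO and 29.7 ± 2.07 in Y-Scr (SD, n = 3 each), a ratio of 7.28. Whether fewer cells expressed the genes or each cell held less RNA cannot be told apart in bulk libraries.

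**Figure D1:**
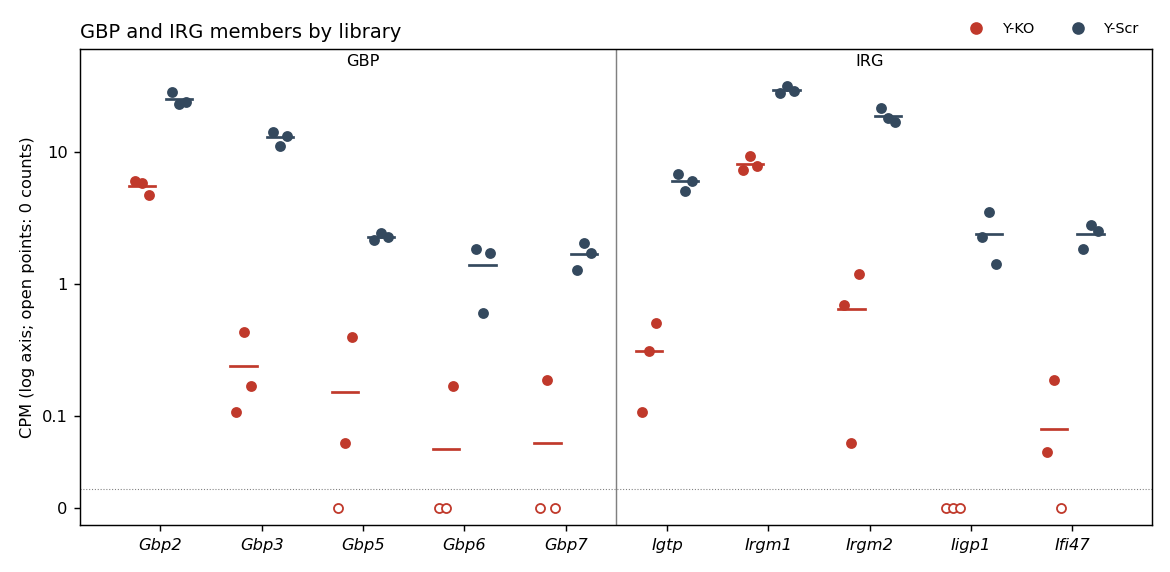
Level of each member in each library, in CPM (counts scaled to library size) on a log axis, with Y-KO libraries left of Y-Scr libraries in each pair, horizontal lines at the group means, and open points below the dotted line for libraries at 0 counts. In all 10 genes the Y-KO points lie below the Y-Scr points, and Gbp2 and Irgm1 keep the highest Y-KO means (5.54 and 8.15 CPM).

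Among the GBPs, Gbp2 kept the most expression. Gbp2, a GBP known in mouse cells to act on Toxoplasma vacuoles and in caspase-11 responses, stood at 6.02, 5.85 and 4.76 CPM in the Y-KO libraries, against 28.4, 23.3 and 23.9 CPM in the Y-Scr libraries. Its log2 fold change was -2.18 ± 0.14 (SE), with an adjusted p of 1.6e-10 in edgeR. The lowest Y-Scr library was thus well above the highest Y-KO library, and reads remained in all 3 Y-KO libraries. Gbp3, its neighbour on chromosome 3, was close to lost. It had 2, 7 and 3 counts in the Y-KO libraries, against 226, 185 and 315 in the Y-Scr libraries, and fell by 5.77 ± 0.30 (adjusted p = 1.3e-11, edgeR). Per count of Gbp2, Gbp3 stood at 0.0179, 0.0745 and 0.0357 in the Y-KO libraries, against 0.503, 0.481 and 0.552 in the Y-Scr libraries. The pair thus changed to unequal extents within one gene cluster.

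The other 3 GBPs were weakly expressed in Y-Scr cells and at or near 0 in Y-KO cells. Gbp5, known to promote assembly of the NLRP3 inflammasome, had 0, 1 and 7 counts in the Y-KO libraries, against 34, 40 and 54 in the Y-Scr libraries. Gbp7, which in mouse macrophages is known to help the assembly of the phagocyte oxidase, had 0, 3 and 0 counts in Y-KO, against 20, 34 and 41 in Y-Scr. Gbp6, of the chromosome 5 cluster, had 0, 0 and 3 counts in Y-KO, against 29, 10 and 41 in Y-Scr. In each of these 3 genes 1 Y-KO library held most of the remaining counts, and it was not the same library in all. Log2 fold changes were -3.84 ± 0.59 for Gbp5, -4.71 ± 0.72 for Gbp7 and -4.45 ± 0.80 for Gbp6, with adjusted p between 3.1e-05 and 0.00017 (edgeR). By summed counts Gbp7 was 29.5-fold lower (exact 95% interval 9.78 to 145) and Gbp6 24.8-fold lower (8.19 to 123), intervals that cover counting error only.

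Size of these falls rests on few reads. Without Y-KO replicate 3, Gbp5 had 1 count left in Y-KO and its log2 fold change was -5.99, while without Y-KO replicate 1 it was -3.23. Gbp6 had 0 Y-KO counts left without Y-KO replicate 3 (fitted log2 fold change -7.67), and Gbp7 had 0 left without Y-KO replicate 2 (-7.97). Gbp3 stood at -6.48 without Y-KO replicate 2. Calls of all 5 GBPs were kept in each of these fits.

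Among the IRG regulators, Irgm1 kept the most expression. Irgm1, known in mouse for restraining the effector IRGs and for a role in autophagy, stood at 7.36, 9.27 and 7.82 CPM in the Y-KO libraries, against 28.1, 31.5 and 28.8 CPM in the Y-Scr libraries. It fell by 1.86 ± 0.12 (edgeR, adjusted p = 2.2e-10), the smallest change of the 10 members. Irgm2 had 13, 1 and 21 counts in Y-KO, against 343, 298 and 406 in Y-Scr, and fell by 4.81 ± 0.39 (adjusted p = 1.2e-05). Igtp, also known as Irgm3, had 2, 5 and 9 counts in Y-KO, against 108, 84 and 145 in Y-Scr, and fell by 4.26 ± 0.36 (adjusted p = 2.1e-08). The groups were far apart for all 3 regulators, while the few remaining Irgm2 reads were spread unevenly over the Y-KO libraries. Without Y-KO replicate 3 the log2 fold change of Irgm2 was -5.53.

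Both IRG effectors were lost or nearly so. Iigp1, which encodes Irga6, an effector that coats the vacuoles of Toxoplasma and Chlamydia in mouse cells, had 0, 0 and 0 counts in the Y-KO libraries, against 36, 58 and 34 in the Y-Scr libraries. It was at least 39.7-fold lower, taking 3 counts over the Y-KO group as the floor (adjusted p = 2.5e-06, edgeR). Ifi47, which encodes the effector Irgd, had 1, 3 and 0 counts in Y-KO, against 29, 46 and 60 in Y-Scr, and fell by 4.84 ± 0.60 (adjusted p = 3.1e-06). Without Y-KO replicate 2, with 1 count left in Y-KO, its log2 fold change was -6.12. No Y-KO library reached 4 counts of either effector, and no Y-Scr library was below 29.

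Both families fell, and no test was made of the difference between them. All 5 GBPs fell, with a median log2 fold change of -4.45 and a range of -5.77 to -2.18. All 5 IRGs fell, with a median of -4.81, also with Iigp1 set to its bound, and its least changed gene at -1.86. With 1 of the 6 libraries left out in turn, the median lay between -5.59 and -3.87 for the GBPs and between -4.84 and -4.32 for the IRGs, so these ranges overlap. Summed RPKM of the GBPs was 2.32 ± 0.252 in Y-KO and 14.8 ± 1.54 in Y-Scr (SD, n = 3 each). For the IRGs it was 1.76 ± 0.206 in Y-KO and 14.9 ± 0.793 in Y-Scr. The GBPs made up 61.3, 57.6 and 51.4% of the members' summed RPKM in the Y-KO libraries, against 51.5, 47.3 and 50.8% in the Y-Scr libraries, and these ranges overlapped. Within each family 1 gene, Gbp2 or Irgm1, fell by less than the other 4.

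Per gene length, the order of levels in Y-Scr cells was led by Gbp2, at 9.26 to 11.3 RPKM. Irgm2 (5.12 ± 0.675 RPKM; SD, n = 3) and Irgm1 (5.07 ± 0.306 RPKM) came next, with ranges that overlapped, and Gbp3 (3.95 ± 0.482 RPKM) and Igtp (2.96 ± 0.434 RPKM) followed. Ifi47 (0.960 ± 0.197 RPKM) and Iigp1 (0.770 ± 0.336 RPKM) overlapped with each other, and Gbp5, Gbp7 and Gbp6 stood lowest, at 0.343, 0.299 and 0.232 RPKM, with Gbp7 overlapping both of the others. For Iigp1 the deposited length was 3121 bases, where GENCODE M21 annotates 5823 exonic bases. With the longer length its RPKM would be lower, so its place between Ifi47 and Gbp5 is uncertain. In Y-KO cells only Gbp2 (2.20 ± 0.272 RPKM) and Irgm1 (1.40 ± 0.172 RPKM) stood clear of their neighbours in the order. Irgm2 followed at 0.176 ± 0.153 RPKM, and from there down the range of each of the other 8 members overlapped that of the next. Gbp2 and Irgm1 together made up 92.5, 90.3 and 81.9% of the members' summed RPKM in the Y-KO libraries, against 50.2, 51.3 and 50.7% in the Y-Scr libraries. Per gene length, what was left of the members' RNA in Y-KO cells was thus mainly that of 1 GBP and 1 IRG regulator.

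**Figure D2:**
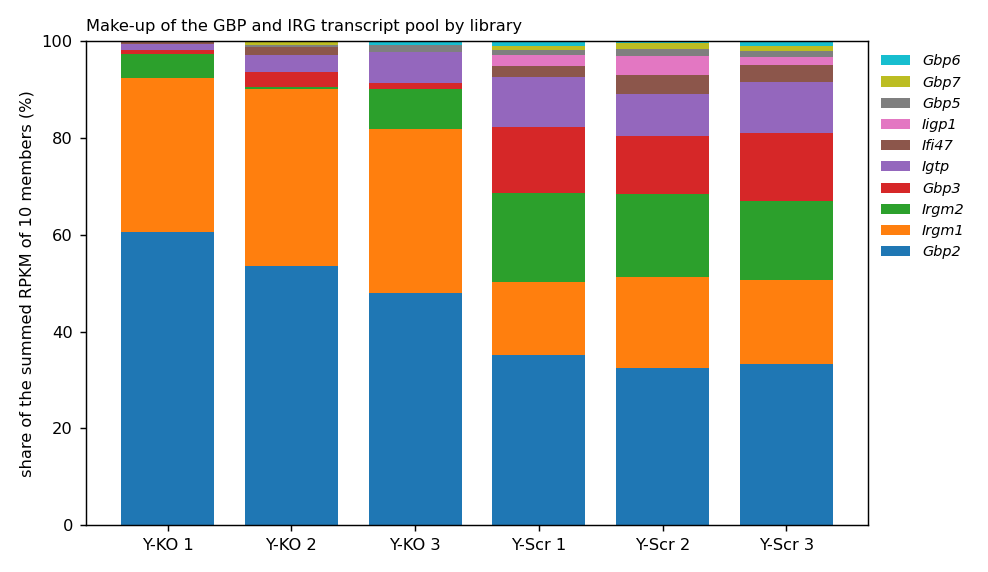
Share of each member in the summed RPKM of the 10 members, in percent, with 1 bar per library and Y-KO libraries at the left. Gbp2 (bottom) and Irgm1 (above it) fill 81.9 to 92.5% of the Y-KO bars and 50.2 to 51.3% of the Y-Scr bars.

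Both other GBP genes with enough reads for a test fell. Of the 6 other GBP genes, 4 had counts and 2 were tested: Gbp9 fell by 3.92 ± 0.27 (edgeR, adjusted p = 1.0e-09) and Gbp4 by 2.51 ± 0.29 (adjusted p = 1.2e-06). Gbp9 had 12, 6 and 11 counts in Y-KO, against 151, 114 and 213 in Y-Scr, and Gbp4 had 14, 11 and 16 in Y-KO, against 72, 69 and 113 in Y-Scr. Gbp4 thus kept some reads in every Y-KO library, as Gbp9 did at a lower level. Gbp9, at a mean of 0.547 CPM in Y-KO, passed the low-count filter through its Y-Scr libraries. A fall was thus nearly the only outcome open to it. Gbp8 (0, 0 and 4 counts in Y-KO, against 7, 6 and 8 in Y-Scr) and Gbp10 (0, 0 and 0 in Y-KO, against 4, 3 and 14 in Y-Scr) were below the filter. Gbp2b and Gbp11 had 0 counts in all libraries.

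Of the 11 other IRG genes, 10 had counts, and only Irgq was tested. Irgq, an IRG-like gene that is not known as interferon-induced, stood at 22.8 ± 1.25 CPM in Y-KO and 20.7 ± 2.03 CPM in Y-Scr (SD, n = 3 each), a log2 fold change of 0.14 ± 0.11 (adjusted p = 0.29, edgeR) and -0.06 with length and GC trends removed. The interferon-inducible effectors Tgtp1 and Tgtp2 had 0, 0 and 0 and 0, 1 and 0 counts in Y-KO, against 4, 16 and 14 and 4, 7 and 17 in Y-Scr. Summed over the Y-KO libraries, Gm5431, Gm4951 and 9930111J21Rik2 had 0 counts, 9930111J21Rik1 had 1 and Gm12185 had 2, against 17, 18, 6, 21 and 19 in Y-Scr. F830016B08Rik and Irgc1 had 0 counts in Y-KO and 1 and 2 in Y-Scr, and Gm4841 had 0 in both. None of these untested genes had more counts in Y-KO than in Y-Scr. With no low-count filter 8 of these 17 other family genes were called lower, and 4 with DESeq2.

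Genes around the members were called about as often as tested genes in general. Over the 5 loci, 39 genes outside the GBP and IRG families were tested, of which 17.9% fell and 25.6% rose, against 23.0% and 20.7% of all tested genes. Within 500 kb of the chromosome 3 GBPs, 5 other genes were tested, of which 1 fell and 1 rose, with a median log2 fold change of 0.07. Around Gbp6, apart from Gbp4 and Gbp9, 1 of 5 fell and 1 rose (median 0.09). Around Irgm1 and Ifi47, 2 of 10 fell and 1 rose (median 0.05). Around Igtp and Irgm2, 0 of 12 fell and 5 rose (median 0.23), among them the translation regulator gene Larp1 (0.43 ± 0.08) and Gemin5 (0.59 ± 0.08). Near Iigp1, 3 of 7 fell and 2 rose (median -0.17), with the lowest, Cd74, the MHC class II chaperone gene, at -1.33 ± 0.10. No tested neighbour outside the GBP and IRG families fell by more than Cd74, and every member fell by more. Larp1, Gemin5 and Cd74 were singled out after their values were seen.

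**Figure D3:**
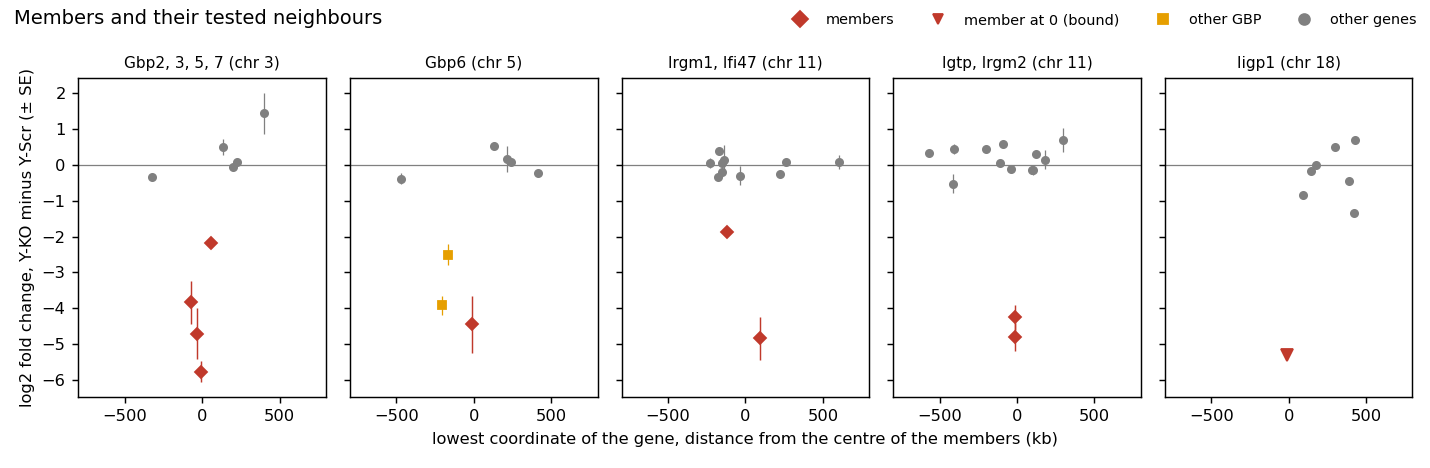
Log2 fold change (Y-KO minus Y-Scr, with SE) of members (red), other GBP genes (orange) and other tested genes within 500 kb (grey), plotted by distance in kb from the centre of the members at each of 5 loci. Members lie between -1.86 and -5.77, with Iigp1 drawn at its bound of -5.31, while the grey points lie between -1.33 and 1.44.

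Among other large GTPases, 9 of 12 listed were tested: 6 fell, 0 rose, and the median log2 fold change was -1.37. Mx2 fell by 4.86 ± 0.27 (edgeR, adjusted p = 3.5e-11) and Mx1, like Mx2 a dynamin-like antiviral GTPase, by 3.25 ± 0.84 (adjusted p = 0.00376). Mx1 had 0, 4 and 0 counts in Y-KO, against 11, 18 and 15 in Y-Scr, and without Y-KO replicate 2, with 0 counts left, its fitted log2 fold change was -6.89. The giant interferon-inducible GTPase gene Gvin1 had no Y-KO counts (at least 51.2-fold lower), and its relative Gm4070 had 3, 0 and 0 counts in Y-KO, against 47, 44 and 58 in Y-Scr. The other 2 that fell, the atlastin genes Atl1 (-1.37 ± 0.36) and Atl2 (-0.22 ± 0.07), shape the endoplasmic reticulum and are not known as interferon-induced. The dynamin genes Dnm1 (0.03 ± 0.08), Dnm2 (-0.02 ± 0.06) and a further atlastin gene, Atl3 (0.03 ± 0.07), did not pass. With length and GC trends removed 8 of the 9 were called lower, Dnm1 and Dnm2 among them (both -0.20), and Atl3 stood at -0.04. The call of Atl2 was lost with the replicate number as a block (adjusted p = 0.0514, edgeR) and without Y-KO replicate 1 (0.116), Y-KO replicate 2 (0.0691) or Y-Scr replicate 2 (0.122).

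In the interferon-gamma pathway, the ligand gene was not detected and Irf1, which encodes a transcription factor of the response, fell. Ifng had 0 counts in all 6 libraries, below 3 counts per library or 0.122 to 0.191 CPM. Of 8 tested genes of the list, 3 fell and 2 rose, with a median of -0.18. Irf1 stood at 40.8 ± 1.52 CPM in Y-KO and 107 ± 4.29 CPM in Y-Scr (SD, n = 3 each), and fell by 1.40 ± 0.07 (edgeR, adjusted p = 1.2e-11). Its groups did not overlap. The receptor genes Ifngr1 (-0.89 ± 0.08) and Ifngr2 (-0.44 ± 0.09) fell by less. Of the kinase genes, Jak1 rose by 0.27 ± 0.07, or stood at 0.10 (adjusted p = 0.178) with length and GC trends removed, and Jak2 stood at -0.15 ± 0.11 (adjusted p = 0.296). Irf8, which encodes a blood-cell interferon regulatory factor, was the other gene that rose, at 2.15 ± 0.197 CPM in Y-KO and 0.884 ± 0.330 CPM in Y-Scr.

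Type I interferon genes were lower at the ligand and at several transcription factors, though Irf3 did not pass. Ifnb1, the interferon beta gene, had 0, 0 and 0 counts in Y-KO, against 22, 30 and 48 in the Y-Scr libraries, which makes it at least 31.0-fold lower. Of 11 tested genes of the list, 7 fell and 1, Tyk2 (0.33 ± 0.09), rose, with a median of -0.64. With length and GC trends removed, 0 rose, and Tyk2 stood at 0.13 (adjusted p = 0.237, edgeR). Log2 fold changes were -6.67 ± 0.20 for Usp18, which encodes a brake on interferon signalling, and -5.33 ± 0.19, -3.08 ± 0.10 and -1.43 ± 0.11 for Irf7, Irf9 and Stat2, which encode transcription factors of the response. Of the other interferon regulatory factor genes of the list, Irf2 fell by 0.48 ± 0.13 and Irf3 stood at -0.13 ± 0.09 (adjusted p = 0.249, edgeR). The receptor genes Ifnar1 (0.12 ± 0.08) and Ifnar2 (-0.26 ± 0.11, adjusted p = 0.0529) did not pass, and Ifnar2 was called lower in 3 other fits.

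**Figure D4:**
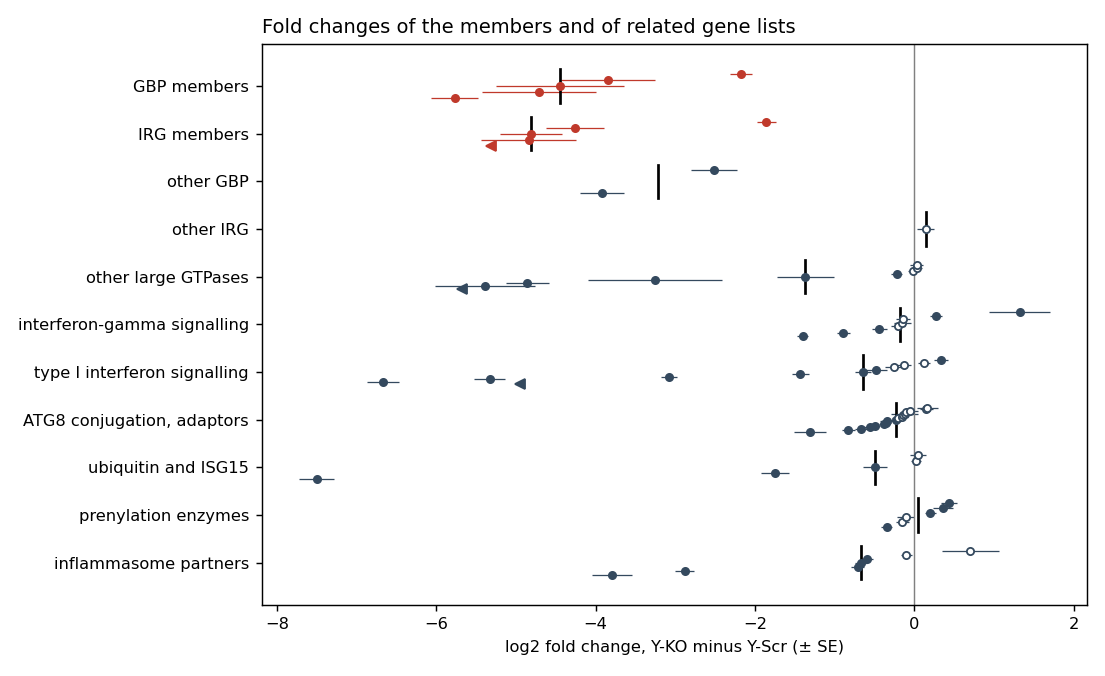
Log2 fold change (Y-KO minus Y-Scr, with SE) of each tested gene, by list, with members in red at the top and black lines at the list medians. Filled points passed an adjusted p under 0.05, triangles mark genes at 0 counts in Y-KO, drawn at their bound, and the medians of the GBP and IRG members (-4.45 and -4.81) lie below those of the other 9 lists shown, with no test of that difference.

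In mouse cells the loading of IRGs and GBPs onto vacuoles needs the conjugation of ATG8 proteins by Atg3, Atg5, Atg7, Atg12 and Atg16l1. Of 17 tested genes of ATG8 conjugation and its adaptors, 9 fell, 0 rose and 8 did not pass, with a median log2 fold change of -0.23. Atg12 fell by 0.83 ± 0.08, Gabarapl2, an ATG8 protein gene, by 0.67 ± 0.07, the adaptor genes Optn by 0.56 ± 0.09 and Sqstm1 by 0.49 ± 0.06. The lowest value was that of Atg10, at -1.31 ± 0.20. Atg5 fell by 0.34 ± 0.09, a call lost with length and GC trends removed (-0.16, adjusted p = 0.129), and Atg7 by 0.23 ± 0.08, a call lost in 8 other fits. Atg3 (-0.16 ± 0.08, adjusted p = 0.137) and Atg16l1 (-0.20 ± 0.08, adjusted p = 0.062) did not pass edgeR's test, and with length and GC trends removed Atg3 stood at 0.06 and Atg16l1 was called lower (-0.36). Among 5 tested genes of ubiquitin-like marking, 3 fell and 0 rose: Isg15 fell by 7.50 ± 0.22, the ubiquitin ligase gene Trim21 by 1.75 ± 0.18 and Rnf213 by 0.50 ± 0.15 (adjusted p = 0.0396, edgeR), a call that Rnf213 lost without Y-Scr replicate 2 (adjusted p = 0.0895) or without Y-KO replicate 1, 2 or 3 (0.104, 0.0564 and 0.0987). Traf6 stood at 0.05 ± 0.10.

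Of 6 tested genes of prenylation enzymes, 1 fell and 3 rose, with a median of 0.05, where 23.0% of all tested genes fell and 20.7% rose. Without Y-KO replicate 2, 1 fell and 1 rose. Fnta, which encodes an alpha subunit shared by prenyltransferases, fell by 0.35 ± 0.07, the carboxyl methyltransferase gene Icmt rose by 0.43 ± 0.10, Fntb by 0.36 ± 0.13 and Zmpste24 by 0.20 ± 0.07. Calls of Fntb and Zmpste24 were lost in several of the other fits. In a list of inflammasome genes and the galectin genes Lgals3 and Lgals9, 5 of 7 tested fell and 0 rose, with a median of -0.67. Casp4, which encodes caspase-11, stood at 4.98 ± 0.503 CPM in Y-KO and 36.8 ± 3.48 CPM in Y-Scr (SD, n = 3 each) and fell by 2.88 ± 0.12. Nlrp3 fell by 3.79 ± 0.25, the galectin gene Lgals9 by 0.71 ± 0.08 and Aim2 by 0.67 ± 0.07. Casp1, the caspase gene of these inflammasomes, did not pass, at 0.70 ± 0.36 (adjusted p = 0.129, edgeR). It was called higher without Y-KO replicate 3 (1.02, adjusted p = 0.0228) and with length and GC trends removed (1.05, adjusted p = 0.0247). Pycard, their adaptor gene, had 1 count in a single Y-KO library and 0 in the others.

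Libraries held 15698510 to 18327877 counts in Y-KO and 15907451 to 24633158 in Y-Scr. The Y-linked genes Ddx3y, Eif2s3y, Kdm5d and Uty had 0 counts in every Y-KO library and 1007 to 3095 in each Y-Scr library. All 10 lymphocyte markers had 0 counts in all libraries. Of 10 macrophage markers, 4 were tested and 3 fell (Mrc1 by 2.33 ± 0.12, Cd14 by 0.56 ± 0.08, Cd68 by 0.17 ± 0.06), while Lyz2 did not pass (-0.56 ± 0.42). The call of Cd68 was lost in 9 other fits, and it stood at -0.05 (adjusted p = 0.561, edgeR) with length and GC trends removed. The list summed to 143 to 153 CPM in Y-KO and 221 to 231 CPM in Y-Scr. Itgam and C1qa were at 0 throughout, and Csf1r had 1 count over the 6 libraries. Of 6 endothelial markers none was tested, Emcn was at 0, and the list summed to 0.995 to 1.45 CPM in Y-KO and 0.544 to 1.13 CPM in Y-Scr. Of 8 fibroblast markers, 3 were tested and Pdgfra rose by 0.73 ± 0.13, while Col1a1 (-0.63 ± 0.44) and Dcn (0.25 ± 0.31) did not pass. Pdgfrb was at 0, and the list summed to 17.9 to 20.9 CPM in Y-KO and 11.7 to 15.9 CPM in Y-Scr. Of 14 urothelial and epithelial markers, Krt20, Upk3a, Epcam and Cdh1 were at 0 in all libraries, and 4 were tested, of which 2 rose and 1 fell. Krt19 rose by 2.37 ± 0.23, with 7.53 ± 0.574 CPM in Y-KO and 1.42 ± 0.371 CPM in Y-Scr (SD, n = 3 each). Gata3, a urothelial transcription factor gene, fell by 1.48 ± 0.21, with 2.81 ± 0.768 CPM in Y-KO and 7.80 ± 0.333 CPM in Y-Scr. Krt8 rose by 0.36 ± 0.06, and it stood at 2820 ± 142 CPM in Y-KO and 2190 ± 67.2 CPM in Y-Scr. Krt18, which did not pass (0.03 ± 0.07), stood at 1350 ± 19.7 CPM in Y-KO and 1330 ± 121 CPM in Y-Scr. The part of these markers in the members' results was not tested.

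Genes whose level over the 6 libraries was most like the mean pattern of the members were Oas3, Muc20, Casp4, Trim30d and Ifi204. Likeness was the Euclidean distance between log2(CPM + 0.5) values centred on each gene's mean, and it ran from 0.218 for Oas3 to 0.329 for Ifi204. Since the libraries form 2 groups, the distance mainly reflects the size of the difference between groups on this scale. The added 0.5 shrinks the changes of weakly expressed genes, so likeness is not equal fold change. Log2 fold changes were -2.50 for Oas3, -2.88 for Casp4, -3.67 for Trim30d and -2.81 for Ifi204. Muc20 was at least 47.4-fold lower, and the median of the members was -4.58. Oas3 stood at 10.9 ± 0.838 CPM in Y-KO and 61.6 ± 4.56 CPM in Y-Scr (SD, n = 3 each), and Muc20 had 0 counts in every Y-KO library, against 42, 40 and 71 in the Y-Scr libraries.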

How the data were processed

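RNA was sequenced from 6 libraries of MB49 cells, 3 labelled CRISPR Y-KO and 3 labelled CRISPR Y-Scr, all in batch 1. The authors deposited raw whole-number read counts per gene, with gene lengths. Per the submitters' processing notes, Trimmomatic 0.39, STAR 2.5.2b, featureCounts 1.5.3 and DESeq2 were used, with the builds GRCm39 and mm39. The table's coordinates, however, equalled those of GENCODE M21 (GRCm38) for 53462 of 54409 shared genes (98.3%). Libraries were made with a stranded kit, per the labels' protocols, and how strand was used in counting is not stated.

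Counts were fitted with edgeR 4.0.16 (R 4.3.3; TMM, filterByExpr, robust quasi-likelihood with 1 group term, Benjamini-Hochberg over 12907 genes, threshold 0.05). SEs are the fold change over the root of its F statistic. CPM and RPKM used TMM-scaled sizes and deposited lengths. Ratios and floors (3 counts) used summed counts, and exact intervals are 95%; PCR copies were not marked. The fit was tested on simulated counts. No 2 replicates were alike within sampling noise (chi-square over its degrees of freedom, 3.55 to 16.0).

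Alternatives were RLE and upper-quartile scaling, DESeq2 1.42.0, limma-voom 3.58.1, other filters, protein-coding genes, a replicate block, each library left out, and removal of trends on length and GC content (splines, 4 degrees of freedom). Members and lists were chosen with earlier results of these data known. Text names all members, all other GBP and IRG genes with reads, up to 4 tested genes per list with the smallest adjusted p, pathway genes fixed by name and 5 genes of nearest pattern; others, such as Atl1, Casp1 or Atg10, were named after their values were seen. The list gene Gm17757 was not used here, and 1 gene of the interferon-gamma list is not reported here and was left out of its counts. A planned description of protein sequences was not made, and no sequence of Iigp1 or Gbp6 was used here.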

Additional observations from a re-analysis of the deposited data

How the results depend on the processing

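All 10 members stayed lower and past the threshold in every fit that tested them, 149 fits of single members in all, with log2 fold changes between -8.62 and -1.78 and a largest adjusted p of 0.00193. With at least 1 CPM in 3 libraries, Gbp6 was not tested and 9 of 9 members were called. Over the 6 libraries left out in turn, 10 members were called each time, the median log2 fold change lay between -5.59 and -3.87 for the GBPs and between -4.84 and -4.32 for the IRGs, and 2458 to 3000 genes were called lower and 2141 to 2803 higher. The other GBP and IRG genes called lower numbered 8 of 14 fitted with no low-count filter and 4 of 14 with DESeq2. In the main fit they numbered 2 of 3. The further calls with DESeq2, Tgtp1 (adjusted p = 0.000799) and Tgtp2 (0.0153), were of genes left untested in the main edgeR fit. With length and GC trends removed, 1 gene of the interferon-gamma list and 0 of the type I list rose, Irgq stood at -0.06, Traf6 at -0.05, Atl3 at -0.04, Atg3 at 0.06 and Dnm1 at -0.20. Over the libraries left out in turn, genes that were not called changed sign: Traf6 (-0.03 to 0.17), Jak2 (-0.26 to 0.01), Krt18 (-0.02 to 0.10), Atl3 (-0.05 to 0.10), Dnm1 (-0.00 to 0.08) and Dnm2 (-0.04 to 0.02). The cause of these changes was not tested. Fntb lost its call in 6 fits, Zmpste24 in 3, Cd68 in 9, Atg7 in 8 and Atl2 in 4. The replicate numbers did not pair the libraries: same-numbered libraries deviated with correlations of -0.102, -0.0673 and -0.03. A fit with the replicate number as a block called 10 members, 2627 genes lower and 2333 higher, with medians of -4.49 (GBPs) and -4.83 (IRGs). Depth limits the members at under 10 Y-KO counts, whose fold changes have wide errors.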
